A study of Homo sapiens with 18 samples.

Results

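The genes described here make sterols and fatty acids, or control that synthesis and the movement of cholesterol. They were chosen by symbol, as 37 named genes of 78724 in the deposited table of read counts, and each matched a single row. They fall into 5 sub-pathways: 7 genes of the mevalonate pathway, 11 of squalene and sterol synthesis, 5 of SREBP control, 8 of fatty acid synthesis and 6 of cholesterol transport and export. The cells were THESC, human stromal cells of the endometrium, the fibroblasts of the uterine lining, immortalised with telomerase. Guide RNAs had been introduced to raise PGR, the gene of the progesterone receptor, and all lines were kept under blasticidin selection. Promoter cells carried a guide named for the promoter and are labelled PGRB-dominant, U1U2 cells carried guides named U1U2 and are labelled PGRA/B-equivalent, and NT cells carried an NT guide and are labelled WT. Each line was treated for 72 h with 1 µM medroxyprogesterone acetate (MPA), a synthetic progestin, or with vehicle, which was 0.01% ethanol. Both were given in medium with charcoal-stripped serum, after a day in low serum. The 6 groups of 3 libraries were promoter MPA, promoter vehicle, U1U2 MPA, U1U2 vehicle, NT MPA and NT vehicle. Whether the replicates came from separate cultures is not stated, so p-values measure the spread between these libraries, which may be technical. Each genotype is represented by 1 line.

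Cells build cholesterol from acetyl-CoA through mevalonate, farnesyl diphosphate, squalene and lanosterol. The genes of this route are switched on together by SREBP-2, and those of fatty acid synthesis mainly by SREBP-1, transcription factors held as inactive precursors in the endoplasmic reticulum. When sterols are scarce, SCAP escorts the precursors to the Golgi, where they are cut and released to the nucleus. When sterols are plentiful, INSIG proteins retain SCAP, and oxysterols turn on the cholesterol exporters ABCA1 and ABCG1 through liver X receptors. In the uterine lining, stromal cells differentiate into decidual cells under progesterone. MPA binds the progesterone receptor and also the glucocorticoid and androgen receptors; which receptor carried the responses below was not tested.

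Library totals ran from 11.9 M to 33.4 M counts. Replicates differed unevenly, by the chi-square statistic per gene between 2 libraries of a group, over genes with at least 20 counts. It was 1.95 to 7.48 for pairs of promoter MPA libraries and 2.90 to 34.9 for pairs of the other groups. The part of this in the calls was not tested. Levels are given as CPM (counts scaled to a common library size with TMM factors), and fold changes on the log2 scale with their standard error, 3 libraries against 3. PGR had 264, 303 and 280 CPM in promoter MPA libraries, against 433, 475 and 395 CPM in promoter vehicle. It had 291, 264 and 226 CPM in U1U2 MPA, against 674, 531 and 584 CPM in U1U2 vehicle, and 95.1, 82.3 and 76.2 CPM in NT MPA, against 120, 153 and 147 CPM in NT vehicle. Both engineered lines therefore held more PGR RNA than NT cells in either medium, and the count per gene cannot separate its isoforms. All 12 stromal markers were detected, at a summed 9135 to 14027 CPM per library. The defining endothelial markers PECAM1 and CDH5 had at most 4 and 2 counts in a library, and CD3E and MS4A1 of lymphocytes had 0 in every library. PTPRC, also on the leukocyte list, was detected in every library, at 33 to 143 counts and 1.55 to 5.48 CPM. On the epithelial list KRT8, KRT18 and KRT19 had 35 to 152, 105 to 460 and 142 to 1134 counts. EPCAM of that list was also detected in every library, at 3 to 34 counts and 0.135 to 1.43 CPM, and CLDN4 at 2 to 12 counts. CDH1 and PAX8 had at most 6 counts. The summed endothelial list was 42.3 to 43.4 CPM in promoter MPA against 72.6 to 74.9 CPM in promoter vehicle, nearly all of it TEK, and it was 45.4 to 50.6 CPM in U1U2 MPA against 66.8 to 74.6 CPM in U1U2 vehicle, and 44.1 to 46.4 CPM in NT MPA against 55.2 to 59.0 CPM in NT vehicle. The leukocyte list, most of it PTPRC, was 1.88 to 2.36 CPM in promoter MPA against 4.06 to 4.64 CPM in promoter vehicle, 1.59 to 2.01 CPM in U1U2 MPA against 3.59 to 4.24 CPM in U1U2 vehicle, and 1.83 to 2.41 CPM in NT MPA against 4.35 to 5.57 CPM in NT vehicle. Neither list overlapped between MPA and vehicle in any line. The epithelial list was 23.6 to 31.6 CPM in promoter MPA against 35.0 to 49.6 CPM in promoter vehicle, and overlapped in U1U2 and NT cells. The stromal list was 12412 to 13855 CPM in U1U2 MPA against 10417 to 10530 CPM in U1U2 vehicle, without overlap, and overlapped in promoter and NT cells. The part of these lists in the results below was not tested. In such bulk libraries, fewer cells of a kind and less RNA per cell cannot be told apart.

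Levels per kilobase of exon differed widely among the genes. In NT vehicle libraries SCD, which desaturates stearate to oleate, was the most abundant at 445 ± 20.8 CPM per kb (SD, n = 3). INSIG1 followed at 114 ± 8.79 and MSMO1, a methylsterol oxidase, at 85.3 ± 5.42 CPM per kb. HMGCS1 (57.4 ± 5.67), SQLE (56.9 ± 6.14) and ACLY (52.3 ± 5.31 CPM per kb) came next and differed from each other by less than their SDs. At the low end stood FASN, the fatty acid synthase, at 1.76 ± 0.621, MVK and MVD at 1.06 ± 0.272 and 1.06 ± 0.383, and TM7SF2, a sterol reductase, at 0.742 ± 0.238 CPM per kb. CYP51A1 and ABCG1 lay lower still, at 0.0577 ± 0.0504 and 0.0153 ± 0.0106 CPM per kb, and both failed the filter on low counts, which left 35 of the 37 genes for testing. CYP51A1, the lanosterol demethylase, had 105 counts over all 18 libraries, but 79.4% of its exon length is shared on the same strand with the annotated gene AC000120.2, which had 0 counts, so its true level is uncertain. ABCG1 had 12 counts over the 18 libraries, 0 to 2 in each.

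**Figure D1:**
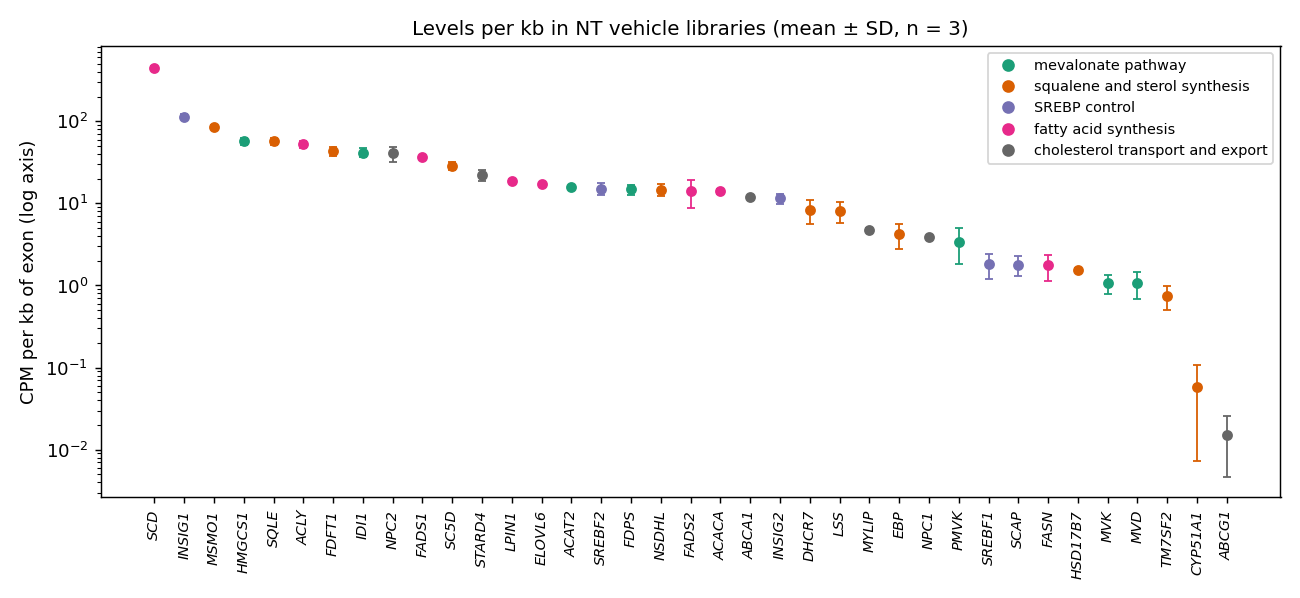
Mean CPM per kilobase of annotated exon in the 3 NT vehicle libraries, on a log axis, with SD bars, one point per gene coloured by sub-pathway. SCD stands alone at the top at 445 CPM per kb, and CYP51A1 and ABCG1 stand apart at the bottom.

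MPA lowered genes of all 5 sub-pathways in promoter cells. In promoter cells 17 of 35 tested genes were called lower and 1 was called higher, at an adjusted p under 0.05 by edgeR's quasi-likelihood test with Benjamini-Hochberg adjustment over 15558 genes. Over all tested genes 15.0% were called in that comparison, 8.40% lower and 6.63% higher. In U1U2 cells 14 were called, all lower, where 11.7% of all genes were called, 6.22% lower and 5.44% higher. In NT cells 9 were called, all lower, where 5.93% of all genes were called, 3.48% lower and 2.44% higher. The median log2 fold change of the tested genes was -0.35 in promoter cells, -0.27 in U1U2 cells and -0.29 in NT cells, beside -0.00, 0.03 and 0.02 for all genes tested. At an unadjusted p under 0.05, 22 genes passed in either direction in promoter cells, 19 in U1U2 cells and 15 in NT cells. Of all genes 26.8%, 23.2% and 16.9% did so. Among those that passed, 21 were lower in promoter cells, 19 in U1U2 cells and 14 in NT cells. The MPA and vehicle libraries did not overlap, with MPA lower, for 21 genes in promoter cells (18.1% of all genes), 16 in U1U2 cells (12.3%) and 11 in NT cells (9.78%). With MPA higher they did not overlap for ABCA1 in promoter cells (17.6% of all genes) and in NT cells (9.49%), and for no gene in U1U2 cells (11.5%).

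The calls were shared among lines to different degrees. HMGCS1, SQLE, TM7SF2, MSMO1, INSIG1, ELOVL6 and LPIN1 fell in all 3 lines. ACAT2, FDPS, FDFT1, HSD17B7, SCD and NPC2 fell in promoter and U1U2 cells, and IDI1 fell in promoter and NT cells. DHCR7, FADS1 and STARD4 were called lower in promoter cells alone, ACACA in U1U2 cells alone and SC5D in NT cells alone. A call in a single line does not show that the lines differ, and the test of that difference is given further on. The direction was negative in all 3 lines for 26 of the 35 genes and positive in all 3 for SCAP, SREBF1 and ABCA1. The most negative of the 3 values was that of promoter cells for 21 genes, of U1U2 cells for 7 and of NT cells for 7. Neither the sharing of calls among lines nor these directions and ranks were counted for all genes. The difference of responses, promoter minus NT cells, was negative for 26 of the 35 genes and for 8267 of all 15558. For promoter minus U1U2 cells, a difference that shares the promoter libraries, it was negative for 28 of the 35 and for 8604 of all 15558.

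Summed over its genes, each sub-pathway of synthesis was lower under MPA. The mevalonate genes summed to 367 ± 11.7 CPM in promoter MPA and 673 ± 50.9 CPM in promoter vehicle (SD, n = 3 each). The sum was 408 ± 33.2 CPM in U1U2 MPA and 649 ± 45.7 CPM in U1U2 vehicle, and 399 ± 27.0 CPM in NT MPA and 590 ± 37.5 CPM in NT vehicle. Genes of squalene and sterol synthesis summed to 744 to 755 CPM in promoter MPA against 1037 to 1144 CPM in promoter vehicle. Their sums were 763 to 794 CPM in U1U2 MPA against 1014 to 1066 CPM in U1U2 vehicle, and 762 to 797 CPM in NT MPA against 1007 to 1028 CPM in NT vehicle. In these sub-pathways no MPA library reached any vehicle library of its line. The SREBP control sum, of which INSIG1 made up 51.6% to 73.1%, was separated in the same way. The fatty acid sum, of which SCD made up 56.8% to 66.7%, was 2793 to 2915 CPM in promoter MPA against 3492 to 4356 CPM in promoter vehicle. In NT cells it overlapped, at 2844 to 3669 CPM in MPA and 3589 to 4009 CPM in vehicle. Transport and export genes summed to 356 to 370 CPM in promoter MPA against 383 to 476 CPM in promoter vehicle, and their sums overlapped in U1U2 and NT cells.

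**Figure D2:**
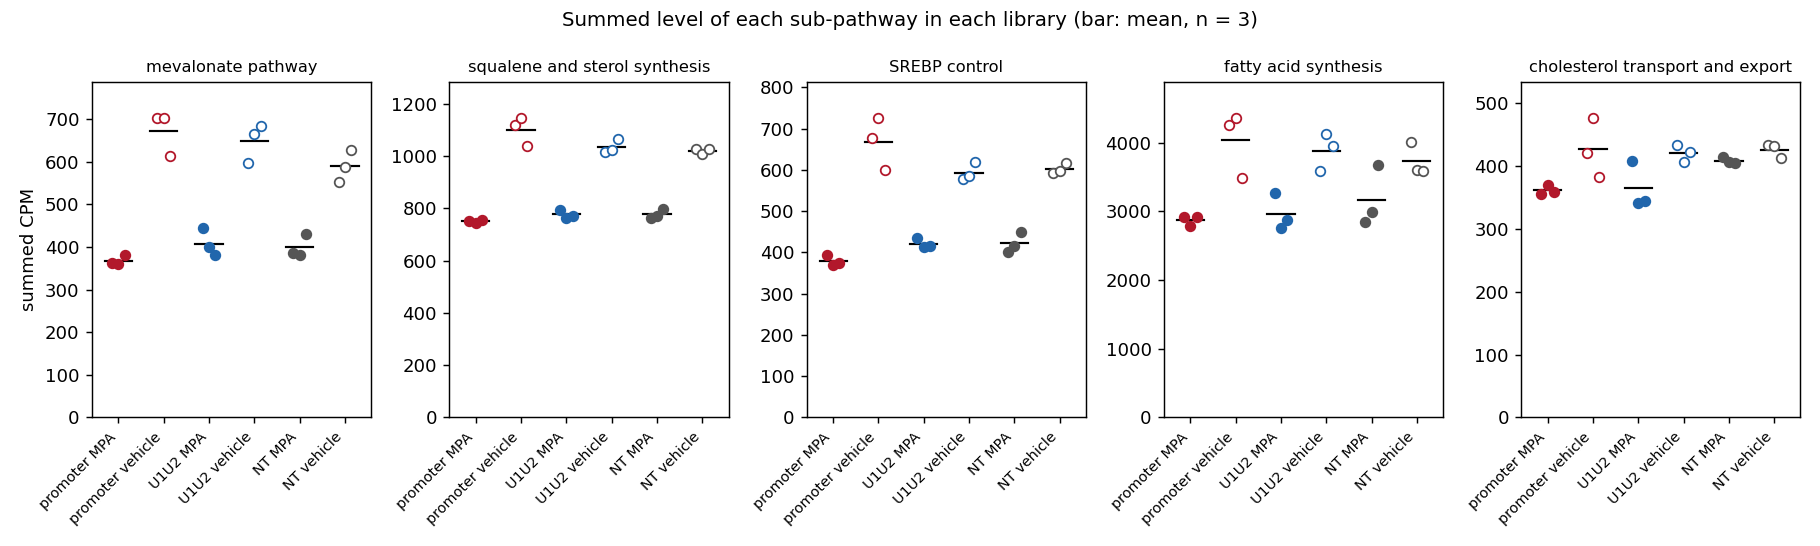
Summed CPM of the genes of each sub-pathway, one point per library, with the group mean as a bar. Filled points are MPA libraries and open points vehicle libraries. MPA libraries lie below all vehicle libraries of their line in the first 3 panels, and the last 2 panels hold overlaps in NT cells.

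**Figure D3:**
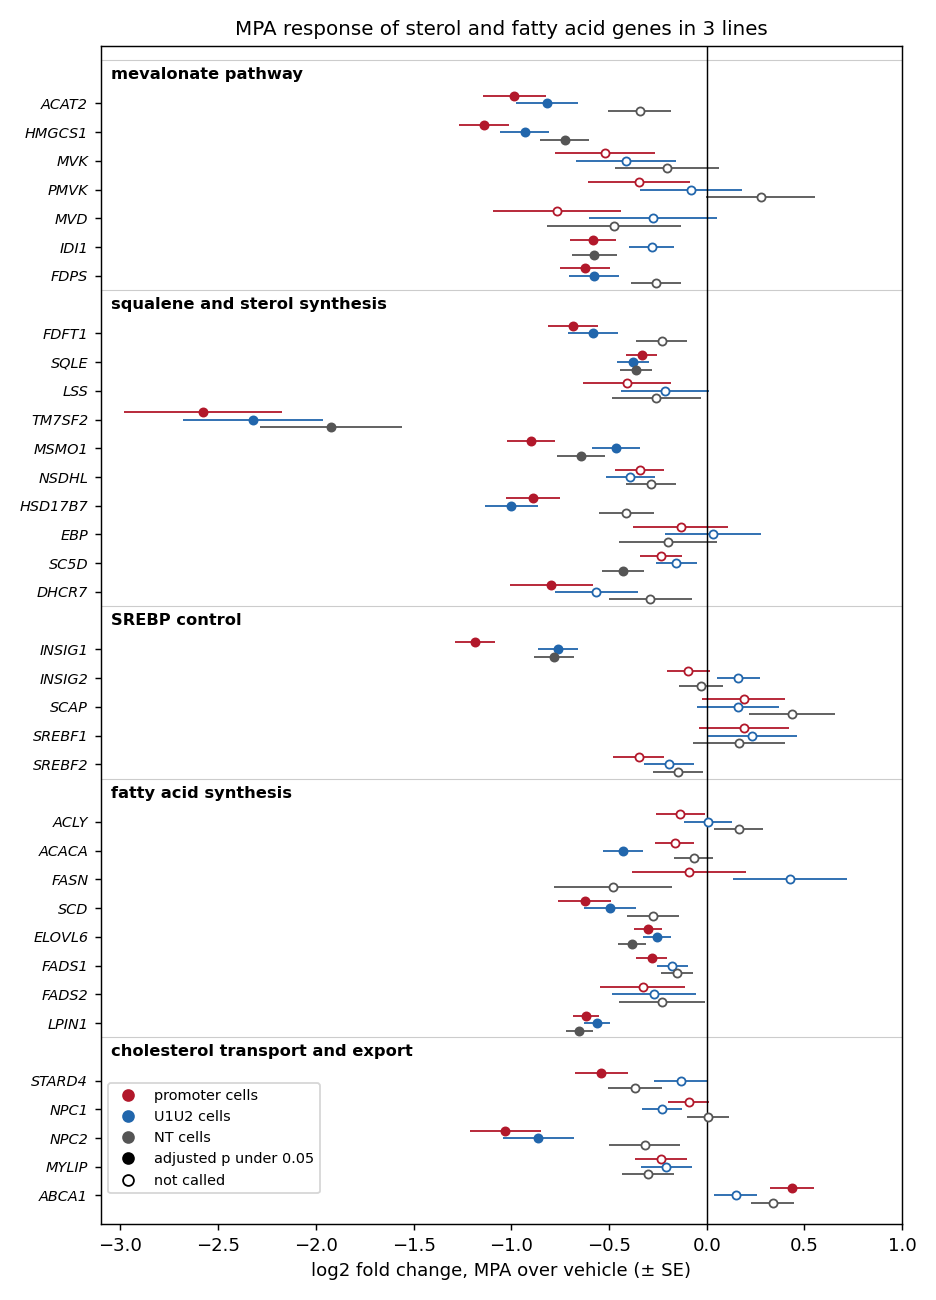
Log2 fold change of MPA over vehicle with its standard error for the 35 tested genes in each line. Filled points are called at an adjusted p under 0.05. Most points lie left of 0, and TM7SF2 lies farthest left in every line.

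In the mevalonate pathway 4 of 7 genes fell in promoter cells, 3 in U1U2 cells and 2 in NT cells, with median log2 fold changes of -0.62, -0.41 and -0.34. Over all genes 8.40%, 6.22% and 3.48% were called lower in these lines. HMGCS1, the cytosolic HMG-CoA synthase (5:43289395-43313512 on GRCh38), had 137, 140 and 149 CPM in promoter MPA libraries, against 332, 334 and 273 CPM in promoter vehicle. It had 189, 159 and 142 CPM in U1U2 MPA against 274, 326 and 334 CPM in U1U2 vehicle, and 154, 145 and 190 CPM in NT MPA against 240, 278 and 292 CPM in NT vehicle. The groups did not overlap in any line. The log2 fold change of HMGCS1 was -1.14 ± 0.13 in promoter cells (adjusted p = 3.01e-06), -0.93 ± 0.13 in U1U2 cells (adjusted p = 4.02e-05) and -0.73 ± 0.13 in NT cells (adjusted p = 0.001). ACAT2, the cytosolic acetoacetyl-CoA thiolase, had 43.6, 43.7 and 48.6 CPM in promoter MPA, against 104, 87.4 and 77.1 CPM in promoter vehicle. It had 58.7, 47.2 and 47.5 CPM in U1U2 MPA against 70.9, 105 and 94.2 CPM in U1U2 vehicle. In NT cells ACAT2 overlapped: NT MPA replicate 3, at 69.3 CPM, was above the 3 vehicle libraries at 69.2, 67.0 and 69.1 CPM, while the other MPA libraries had 46.2 and 47.0 CPM. ACAT2 fell, at -0.98 ± 0.16 in promoter cells (adjusted p = 0.000237) and -0.82 ± 0.16 in U1U2 cells (adjusted p = 0.00171), and its NT value was -0.34 ± 0.16 (adjusted p = 0.285), which passed without NT MPA replicate 3 (adjusted p = 0.0473). Exons of SOD2 and TCP1 on the opposite strand cover 26.5% and 9.2% of the exon length of ACAT2, and the strand setting of the counting is not given in the sources used here, so some of its reads could belong to them. The same limit holds for other members: 18 of the 37 overlap exons of another gene, 5 of them on the same strand. Opposite-strand overlaps cover 18.6% of FDPS (RUSC1-AS1), 14.8% of IDI1 (IDI2-AS1) and 15.0% of HMGCS1 (AC114947.2, which had 0 counts).

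The last steps of the pathway also moved. IDI1, the isopentenyl diphosphate isomerase, had 121, 122 and 128 CPM in promoter MPA against 171, 205 and 179 CPM in promoter vehicle, without overlap. It had 136, 120 and 108 CPM in NT MPA against 158, 181 and 203 CPM in NT vehicle, again without overlap, and 142, 140 and 121 CPM in U1U2 MPA against 177, 139 and 174 CPM in U1U2 vehicle, with overlap. IDI1 fell, at -0.58 ± 0.12 in promoter cells (adjusted p = 0.00166) and -0.57 ± 0.12 in NT cells (adjusted p = 0.00426), and stood at -0.28 ± 0.12 in U1U2 cells (adjusted p = 0.14). FDPS, which makes farnesyl diphosphate, the branch point to sterols and to protein prenylation, had 43.9, 42.5 and 41.1 CPM in promoter MPA against 73.2, 60.3 and 62.9 CPM in promoter vehicle. FDPS had 44.5, 39.2 and 50.6 CPM in U1U2 MPA against 59.5, 76.0 and 65.1 CPM in U1U2 vehicle, and 38.9, 48.7 and 50.4 CPM in NT MPA against 63.9, 48.5 and 52.9 CPM in NT vehicle. Only the NT groups overlapped. FDPS fell, at -0.62 ± 0.13 in promoter cells (adjusted p = 0.00218) and -0.58 ± 0.13 in U1U2 cells (adjusted p = 0.00492), and was at -0.26 ± 0.13 in NT cells (adjusted p = 0.325). The mevalonate kinase MVK, the phosphomevalonate kinase PMVK and the decarboxylase MVD, at 1.90 to 8.87 CPM over all libraries, were called in no line by edgeR. Their log2 fold changes in promoter cells were -0.52 ± 0.26, -0.35 ± 0.26 and -0.77 ± 0.33, and that of MVD passed with no filter (adjusted p = 0.00584) and without promoter MPA replicate 1 (adjusted p = 0.0494).

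Of the 10 tested genes of squalene and sterol synthesis, 6 fell in promoter cells, 5 in U1U2 cells and 4 in NT cells, with medians of -0.55, -0.43 and -0.32. The shares of all genes called lower were 8.40%, 6.22% and 3.48%. TM7SF2 (11:65111845-65116384), which reduces the sterol ring after lanosterol is demethylated, had the most negative value of the 35 genes in every line. It had 0.188, 0.380 and 0.271 CPM in promoter MPA against 2.01, 0.879 and 1.98 CPM in promoter vehicle. Its level was 0.422, 0.362 and 0.614 CPM in U1U2 MPA against 1.66, 2.81 and 2.65 CPM in U1U2 vehicle, and 0.476, 0.885 and 0.482 CPM in NT MPA against 3.43, 1.86 and 2.29 CPM in NT vehicle. The groups did not overlap, but the gene was scarce, with 5, 10 and 6 counts in the promoter MPA libraries against 64, 14 and 71 counts in promoter vehicle. TM7SF2 fell, at -2.58 ± 0.40 in promoter cells (adjusted p = 0.000166), -2.32 ± 0.36 in U1U2 cells (adjusted p = 0.000185) and -1.92 ± 0.36 in NT cells (adjusted p = 0.00229). MSMO1, which removes methyl groups from the ring, had 143, 152 and 147 CPM in promoter MPA against 264, 323 and 237 CPM in promoter vehicle. It had 202, 171 and 146 CPM in U1U2 MPA against 234, 212 and 270 CPM in U1U2 vehicle, and 158, 146 and 170 CPM in NT MPA against 229, 251 and 260 CPM in NT vehicle. None of these groups overlapped. MSMO1 fell, at -0.90 ± 0.12 in promoter cells (adjusted p = 4.38e-05), -0.47 ± 0.12 in U1U2 cells (adjusted p = 0.0181) and -0.64 ± 0.12 in NT cells (adjusted p = 0.00287). The U1U2 call of MSMO1 was lost without U1U2 vehicle replicate 3, U1U2 MPA replicate 2 or U1U2 MPA replicate 3 and with only the compared groups fitted, at an adjusted p of up to 0.123.

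HSD17B7, a ketosteroid reductase of the same demethylation steps that can also make estradiol, had 4.59, 4.49 and 4.70 CPM in promoter MPA against 9.46, 8.35 and 7.71 CPM in promoter vehicle. It had 5.62, 4.07 and 4.81 CPM in U1U2 MPA against 8.57, 10.5 and 9.85 CPM in U1U2 vehicle, and 5.54, 5.18 and 6.05 CPM in NT MPA against 7.45, 7.81 and 6.94 CPM in NT vehicle. All 3 pairs of groups were separate. The fall of HSD17B7 was -0.89 ± 0.14 in promoter cells (adjusted p = 0.000143) and -1.0 ± 0.14 in U1U2 cells (adjusted p = 4.92e-05), and the NT value was -0.41 ± 0.14 (adjusted p = 0.112). HSD17B7, FDPS and SCD have pseudogene copies, to which some of their reads may have been assigned. DHCR7, which makes cholesterol from 7-dehydrocholesterol, had 29.1, 23.9 and 24.2 CPM in promoter MPA against 51.1, 38.5 and 44.2 CPM in promoter vehicle, without overlap. Its level was 23.3, 20.8 and 34.8 CPM in U1U2 MPA against 34.9, 44.3 and 37.9 CPM in U1U2 vehicle, and 21.9, 32.8 and 29.4 CPM in NT MPA against 46.8, 29.9 and 26.5 CPM in NT vehicle. The NT groups overlapped, and NT vehicle replicate 1 was the highest of them. DHCR7 fell, at -0.79 ± 0.21 in promoter cells (adjusted p = 0.0147), with -0.56 ± 0.21 in U1U2 cells (adjusted p = 0.101) and -0.29 ± 0.21 in NT cells (adjusted p = 0.55). The promoter call of DHCR7 was lost when promoter vehicle replicate 1, or promoter MPA replicate 2 or 3, was left out, at an adjusted p of up to 0.0767. The U1U2 value of DHCR7 passed with no filter (adjusted p = 0.000606) and without U1U2 MPA replicate 3 (adjusted p = 0.0169).

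FDFT1, the squalene synthase that commits carbon to sterols, fell, at -0.68 ± 0.13 in promoter cells and -0.58 ± 0.13 in U1U2 cells, and was at -0.23 ± 0.13 in NT cells. SQLE, the squalene epoxidase, fell, at -0.33 ± 0.08, -0.38 ± 0.08 and -0.36 ± 0.08 in promoter, U1U2 and NT cells. The promoter call of SQLE was lost without promoter MPA replicate 1 (adjusted p = 0.0562), and its NT call without NT vehicle replicate 2, NT vehicle replicate 3 or NT MPA replicate 2, with no filter and with only the compared groups fitted (adjusted p up to 0.125). SC5D, which introduces a double bond into the ring, fell, at -0.43 ± 0.11 in NT cells (adjusted p = 0.0201) and was at -0.23 ± 0.11 and -0.15 ± 0.11 in promoter and U1U2 cells. That call was lost without NT vehicle replicate 2 or 3 or NT MPA replicate 2 or 3 and with only the compared groups fitted (adjusted p up to 0.11). The lanosterol synthase LSS, NSDHL and the isomerase EBP were called in no line by edgeR, with promoter values of -0.41 ± 0.23, -0.34 ± 0.13 and -0.13 ± 0.24. NSDHL stood at -0.39 ± 0.13 in U1U2 cells (adjusted p = 0.0529) and was called there by DESeq2 (adjusted p = 0.0196), with RLE factors (adjusted p = 0.0374), with a mean of at least 1 CPM (adjusted p = 0.0426) and without U1U2 MPA replicate 3 (adjusted p = 0.00831). LSS passed in promoter cells with no filter (adjusted p = 0.01) and NSDHL and LSS with only the compared groups fitted (adjusted p = 0.0167 and 0.0376).

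Among the genes of SREBP control only INSIG1 fell, and it fell in all 3 lines. That is 1 call of 5 genes in each line, where 8.40%, 6.22% and 3.48% of all genes were called lower in promoter, U1U2 and NT cells. INSIG1 (7:155297776-155310235) had 203, 208 and 209 CPM in promoter MPA libraries, against 468, 530 and 411 CPM in promoter vehicle. It had 266, 240 and 215 CPM in U1U2 MPA against 409, 384 and 429 CPM in U1U2 vehicle, and 237, 226 and 267 CPM in NT MPA against 382, 422 and 446 CPM in NT vehicle. The highest MPA library of each line was well below the lowest vehicle library. INSIG1 fell, at -1.18 ± 0.10 in promoter cells (adjusted p = 1.43e-07), -0.76 ± 0.10 in U1U2 cells (adjusted p = 3.97e-05) and -0.78 ± 0.10 in NT cells (adjusted p = 5.96e-05), and no alternative ended these calls. Its paralog INSIG2, which is not a strong SREBP target, was at -0.09 ± 0.11, 0.16 ± 0.11 and -0.03 ± 0.11. The escort protein SCAP was at 0.19 ± 0.21, 0.16 ± 0.21 and 0.44 ± 0.22, and SREBF1, which encodes SREBP-1, at 0.19 ± 0.23, 0.23 ± 0.23 and 0.17 ± 0.24, in promoter, U1U2 and NT cells. SREBF2, which encodes SREBP-2, had 105, 85.6 and 87.0 CPM in promoter MPA against 129, 111 and 114 CPM in promoter vehicle, without overlap. Its value there was -0.35 ± 0.13 (adjusted p = 0.0819), which was not called but passed with GC and length offsets (adjusted p = 0.000405), with no filter (adjusted p = 0.0205), with only the compared groups fitted (adjusted p = 0.0226) and without promoter MPA replicate 1 (adjusted p = 0.0496).

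The promoters of the genes were read from RefSeq on GRCh38.p14, as 250 bases before and 50 after each start, which gave 32 of the 37. CCAAT, the box bound by NF-Y, was present on either strand in 19 of 32 (59.4%), against 39.7% of all 27305 promoters. GGGCGG, the SP1 box, was present in 29 of 32 (90.6%) against 48.3%, and CACGTG, the E-box, in 5 of 32 (15.6%) against 8.77%. TCACNCCAC, a strict form of the sterol regulatory element, was found in 1 of 32 (3.12%) against 1.39%. The full palindromic steroid receptor element was found in 0 of 32, against 0.00366% of all promoters. These motifs do not contain each other, a match is no proof of binding, and looser forms were not searched. Of the genes called lower in all 3 lines, MSMO1 had 4 CCAAT matches, INSIG1 and TM7SF2 1 each, and HMGCS1, ELOVL6 and LPIN1 0. SQLE was not among the promoters read. MVK and NSDHL, called in no line by edgeR, had 5 each, and MVD and EBP, likewise not called, 3 each. Whether the matches go with the calls was not tested. Below are the windows of MSMO1 and INSIG1, as genes that fell in all 3 lines with CCAAT matches, and of SREBF2, which holds the match to TCACNCCAC. They were chosen after the values were seen, and matches to CCAAT (read as ATTGG on the other strand), CACGTG and TCACNCCAC are in capitals. The MSMO1 window is chr4:165327419-165327718, the INSIG1 window chr7:155297628-155297927 and the SREBF2 window chr22:41832855-41833154, all on the plus strand.
MSMO1: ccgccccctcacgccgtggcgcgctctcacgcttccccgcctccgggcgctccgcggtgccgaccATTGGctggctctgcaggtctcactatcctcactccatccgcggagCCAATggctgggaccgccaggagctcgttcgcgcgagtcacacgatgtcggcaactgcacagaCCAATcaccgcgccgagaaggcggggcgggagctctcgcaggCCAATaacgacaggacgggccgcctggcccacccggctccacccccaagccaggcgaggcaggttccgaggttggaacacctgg
INSIG1: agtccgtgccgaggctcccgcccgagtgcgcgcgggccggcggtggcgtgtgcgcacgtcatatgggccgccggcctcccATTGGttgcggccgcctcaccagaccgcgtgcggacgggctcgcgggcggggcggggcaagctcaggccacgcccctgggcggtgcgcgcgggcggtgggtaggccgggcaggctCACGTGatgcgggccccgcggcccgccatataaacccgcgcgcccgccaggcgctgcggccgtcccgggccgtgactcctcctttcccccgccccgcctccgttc
SREBF2: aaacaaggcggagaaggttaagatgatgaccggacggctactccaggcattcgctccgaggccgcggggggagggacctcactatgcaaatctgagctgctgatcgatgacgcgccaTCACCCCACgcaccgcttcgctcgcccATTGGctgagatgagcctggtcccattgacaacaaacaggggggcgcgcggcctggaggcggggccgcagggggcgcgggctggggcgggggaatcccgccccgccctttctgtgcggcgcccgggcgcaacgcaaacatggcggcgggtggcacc
The MSMO1 window has 4 such boxes, starting 185, 139, 76 and 34 bases before the start, that of INSIG1 has an ATTGG 170 bases and a CACGTG 55 bases before it, and that of SREBF2 has TCACCCCAC 133 bases and ATTGG 106 bases before it.

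Genes of fatty acid synthesis fell in 4 of 8 cases in promoter cells, 4 in U1U2 cells and 2 in NT cells, with medians of -0.29, -0.26 and -0.25. For all genes the shares called lower were 8.40%, 6.22% and 3.48%. SCD had 1690, 1640 and 1730 CPM in promoter MPA libraries against 2750, 2910 and 2140 CPM in promoter vehicle. It had 2030, 1650 and 1630 CPM in U1U2 MPA against 2250, 2660 and 2550 CPM in U1U2 vehicle, and 1750, 1780 and 2390 CPM in NT MPA against 2520, 2320 and 2330 CPM in NT vehicle. Only in NT cells did the groups overlap, through NT MPA replicate 3. SCD fell, at -0.63 ± 0.13 in promoter cells (adjusted p = 0.00293) and -0.49 ± 0.13 in U1U2 cells (adjusted p = 0.0199), and was at -0.28 ± 0.13 in NT cells (adjusted p = 0.301). The U1U2 call was lost without U1U2 vehicle replicate 2 or 3 or U1U2 MPA replicate 2 or 3 (adjusted p up to 0.102). LPIN1, a phosphatidate phosphatase of triglyceride synthesis that is also a nuclear coregulator, had 124, 126 and 125 CPM in promoter MPA against 187, 190 and 198 CPM in promoter vehicle. It had 130, 130 and 132 CPM in U1U2 MPA against 208, 183 and 188 CPM in U1U2 vehicle, and 138, 145 and 140 CPM in NT MPA against 235, 213 and 215 CPM in NT vehicle. Replicates lay close together and no groups overlapped. LPIN1 fell, at -0.62 ± 0.07 in promoter cells (adjusted p = 2.48e-06), -0.56 ± 0.07 in U1U2 cells (adjusted p = 9.93e-06) and -0.65 ± 0.07 in NT cells (adjusted p = 3.79e-06).

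ELOVL6, which lengthens palmitate to stearate, had 97.8, 104 and 103 CPM in promoter MPA against 122, 120 and 134 CPM in promoter vehicle. It had 93.1, 103 and 102 CPM in U1U2 MPA against 122, 117 and 117 CPM in U1U2 vehicle, and 102, 95.1 and 90.7 CPM in NT MPA against 118, 127 and 129 CPM in NT vehicle. The differences were small and without overlap in any line. ELOVL6 fell, at -0.30 ± 0.07 in promoter cells (adjusted p = 0.00728), -0.26 ± 0.07 in U1U2 cells (adjusted p = 0.0256) and -0.38 ± 0.07 in NT cells (adjusted p = 0.00242). FADS1, the delta-5 desaturase of long-chain polyunsaturated fatty acids, had 349, 336 and 349 CPM in promoter MPA against 428, 443 and 387 CPM in promoter vehicle. FADS1 had 365, 316 and 326 CPM in U1U2 MPA against 362, 388 and 387 CPM in U1U2 vehicle, and 318, 323 and 369 CPM in NT MPA against 391, 368 and 364 CPM in NT vehicle, both with overlap. FADS1 fell, at -0.28 ± 0.08 in promoter cells (adjusted p = 0.0236), and was at -0.18 ± 0.08 and -0.15 ± 0.08 in U1U2 and NT cells. The ELOVL6 call in promoter cells was lost with no filter and without promoter vehicle replicate 3 or promoter MPA replicate 1 (adjusted p up to 0.0679), in U1U2 cells under 6 of the alternatives (adjusted p up to 0.217), and in NT cells with only the compared groups fitted (adjusted p = 0.0635). The FADS1 call was lost under 6 alternatives, 5 of them leaving out a single library (adjusted p up to 0.108).

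Among the enzymes at the entry of fatty acid synthesis, ACLY, which makes cytosolic acetyl-CoA, was at -0.13 ± 0.12 in promoter cells, 0.01 ± 0.12 in U1U2 cells and 0.16 ± 0.12 in NT cells. ACACA, the acetyl-CoA carboxylase, fell, at -0.43 ± 0.10 in U1U2 cells (adjusted p = 0.00784), a call lost without U1U2 vehicle replicate 2 or U1U2 MPA replicate 2 (adjusted p up to 0.0552). It was at -0.16 ± 0.10 in promoter cells and -0.07 ± 0.10 in NT cells. Mean ACACA levels were close under MPA, at 175 CPM in promoter, 175 CPM in U1U2 and 174 CPM in NT cells. In vehicle they were 196 ± 20.9, 236 ± 20.6 and 182 ± 13.3 CPM (SD, n = 3 each), highest in U1U2 cells. FASN varied widely between replicates, with 19.2, 12.8 and 12 CPM in promoter MPA against 15.7, 12.4 and 18.5 CPM in promoter vehicle, 9.23, 15.6 and 23.0 CPM in U1U2 MPA against 13.5, 11.6 and 10.7 CPM in U1U2 vehicle, and 10.4, 15 and 9.56 CPM in NT MPA against 22.8, 15.5 and 11.3 CPM in NT vehicle. Its log2 fold changes were -0.09 ± 0.29, 0.43 ± 0.29 and -0.48 ± 0.30, and none was called. FADS2, the delta-6 desaturase, was at -0.33 ± 0.22, -0.27 ± 0.22 and -0.23 ± 0.22, and its promoter value passed with no filter (adjusted p = 0.0277).

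Of the 5 tested genes of cholesterol transport and export, 2 fell and 1 rose in promoter cells, 1 fell in U1U2 cells, and all 5 missed the threshold in NT cells. Of all genes 8.40% were called lower and 6.63% higher in promoter cells, and 6.22% lower in U1U2 cells. In NT cells 5.93% were called in either direction. These short counts were not tested against those shares. NPC2, the lysosomal protein that hands cholesterol to NPC1, had 55.2, 50.6 and 52.0 CPM in promoter MPA libraries against 113, 120 and 89.9 CPM in promoter vehicle. It had 77.2, 48.7 and 59.0 CPM in U1U2 MPA against 94.4, 124 and 117 CPM in U1U2 vehicle, and 75.9, 81.8 and 112 CPM in NT MPA against 138, 104 and 92.8 CPM in NT vehicle. The NT groups overlapped and the others did not. NPC2 fell, at -1.03 ± 0.18 in promoter cells (adjusted p = 0.000561) and -0.86 ± 0.18 in U1U2 cells (adjusted p = 0.00333), and was at -0.32 ± 0.18 in NT cells (adjusted p = 0.402). STARD4, which carries sterol between membranes, had 100, 104 and 104 CPM in promoter MPA against 141, 174 and 134 CPM in promoter vehicle. It had 126, 111 and 92.8 CPM in U1U2 MPA against 130, 101 and 130 CPM in U1U2 vehicle, and 106, 92.7 and 93.4 CPM in NT MPA against 102, 137 and 138 CPM in NT vehicle. Only the promoter groups were separate. STARD4 fell, at -0.54 ± 0.14 in promoter cells (adjusted p = 0.0106), a call lost without promoter vehicle replicate 2 (adjusted p = 0.0666), and was at -0.13 ± 0.14 and -0.37 ± 0.14 in U1U2 and NT cells. Its NT value passed without NT vehicle replicate 1 (adjusted p = 0.036).

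ABCA1, which loads cholesterol onto apolipoprotein A-I, was the gene that rose. It had 151, 166 and 156 CPM in promoter MPA libraries, against 113, 127 and 110 CPM in promoter vehicle. Its level was 147, 138 and 139 CPM in U1U2 MPA against 152, 116 and 114 CPM in U1U2 vehicle, and 185, 183 and 142 CPM in NT MPA against 138, 138 and 129 CPM in NT vehicle. The promoter and NT groups did not overlap, and U1U2 vehicle replicate 1 exceeded every U1U2 MPA library. ABCA1 rose by 0.44 ± 0.11 in promoter cells (adjusted p = 0.0113), and stood at 0.15 ± 0.11 in U1U2 cells (adjusted p = 0.47) and 0.34 ± 0.11 in NT cells (adjusted p = 0.0991). The promoter call was lost without promoter MPA replicate 2 (adjusted p = 0.0564), and the NT value passed with no filter, with GC and length offsets and without NT MPA replicate 3 (adjusted p = 0.0197 to 0.0488). NPC1, the membrane partner of NPC2, was at -0.09 ± 0.10, -0.23 ± 0.10 and 0.01 ± 0.11, and MYLIP, a ubiquitin ligase of lipoprotein receptors, at -0.23 ± 0.13, -0.21 ± 0.13 and -0.30 ± 0.13. The U1U2 value of MYLIP passed without U1U2 MPA replicate 1 (adjusted p = 0.0374).

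**Figure D4:**
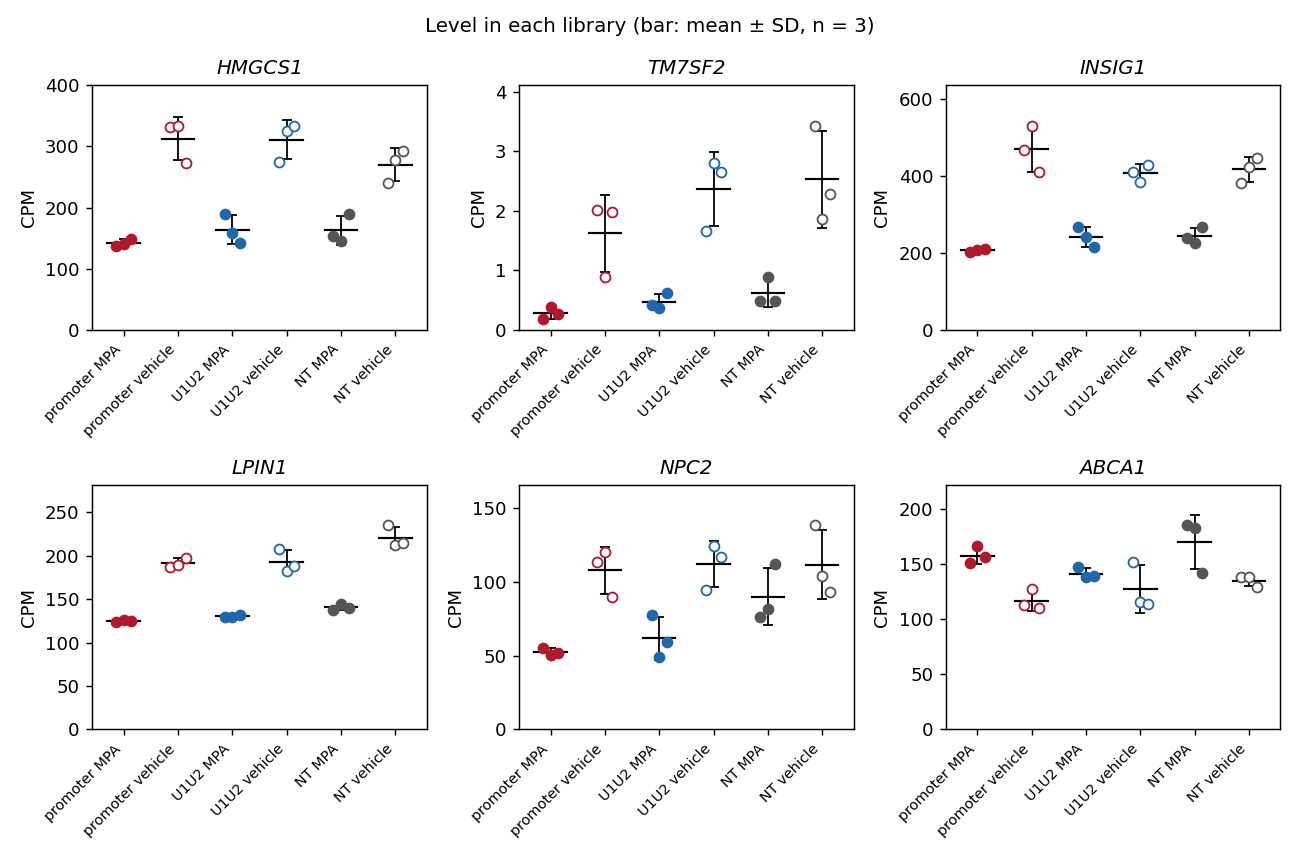
CPM of 6 genes in each library, with the group mean and SD as bars. Filled points are MPA libraries and open points vehicle libraries. HMGCS1, TM7SF2, INSIG1 and LPIN1 are lower in MPA than in vehicle in every line without overlap, NPC2 overlaps in NT cells, and ABCA1 is higher in MPA in promoter cells.

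Differences between lines in the same medium were few. In vehicle 0 of the 35 genes was called between promoter and NT cells, where 6.75% of all genes were called, with 5 at an unadjusted p under 0.05 (21.3% of all genes) and 1 called by DESeq2. Between U1U2 and NT cells in vehicle 0 was called (1.14% of all genes), with 6 at an unadjusted p under 0.05 (16.2% of all genes) and 2 called by DESeq2, and between promoter and U1U2 cells 0 (0.784% of all genes), with 4 at an unadjusted p under 0.05 (8.67% of all genes) and 0 called by DESeq2. ACAT2 was higher in vehicle at the unadjusted level, by 0.39 ± 0.16 in promoter cells and 0.40 ± 0.16 in U1U2 cells relative to NT cells, and LPIN1 lower, at -0.20 ± 0.07 in both. ACACA was higher in U1U2 than in NT vehicle, by 0.38 (adjusted p = 0.0794 by edgeR and 0.0262 by DESeq2). In MPA, NPC2 was the 1 gene called between promoter and NT cells, where 4.15% of all genes were called, 2.37% lower, and it was lower, at -0.77 ± 0.18 (adjusted p = 0.0186), with promoter MPA libraries at 50.6 to 55.2 CPM and NT MPA libraries at 75.9 to 112 CPM. The call was lost without any 1 of the promoter MPA replicates or without NT MPA replicate 3 (adjusted p up to 0.124). Between U1U2 and NT cells in MPA 0 was called (1.72% of all genes), with 2 at an unadjusted p under 0.05 (9.01% of all genes) and 0 called by DESeq2. For promoter against U1U2 cells in MPA, 0 was called (0.328% of all genes), with 1 at an unadjusted p under 0.05 (4.23% of all genes) and 0 called by DESeq2. Of the 6 groups, promoter vehicle had the highest mean for 18 of the 35 genes, and promoter MPA had the lowest mean for 18, ranks that were not counted over all genes.

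Whether the MPA response itself differed between lines was tested as a difference of log2 fold changes. For promoter minus NT cells 0 of the 35 genes was called, where 1.56% of all genes were, with 6 at an unadjusted p under 0.05 (14.8% of all genes), all negative, and 0 called by DESeq2. NPC2 had a difference of -0.71 ± 0.26 (adjusted p = 0.225), ACAT2 -0.64 ± 0.23 (adjusted p = 0.215), HMGCS1 -0.41 ± 0.18 (adjusted p = 0.298) and INSIG1 -0.41 ± 0.14 (adjusted p = 0.217). NPC2 and ACAT2 passed with no filter on low counts (adjusted p = 0.000739 and 0.00552), and under no other alternative. For U1U2 minus NT cells 0 was called (0.219% of all genes), with 5 at an unadjusted p under 0.05 (10% of all genes) and 0 called by DESeq2. HSD17B7 stood at -0.59 ± 0.20 (adjusted p = 0.385) and FASN at 0.91 ± 0.42 (adjusted p = 0.493), which passed with no filter (adjusted p = 0.0278). For promoter minus U1U2 cells 0 was called (0.0129% of all genes), with 3 at an unadjusted p under 0.05 (5.17% of all genes) and 0 by DESeq2, among them INSIG1 at -0.42 ± 0.14 (adjusted p = 0.589) and MSMO1 at -0.43 ± 0.17 (adjusted p = 0.837). LPIN1 and SQLE had differences close to 0 with narrow errors, from -0.06 ± 0.09 to 0.09 ± 0.09 for LPIN1 and from -0.02 ± 0.12 to 0.04 ± 0.12 for SQLE. The median difference over the 35 genes was -0.17 for promoter minus NT cells, -0.04 for U1U2 minus NT cells and -0.13 for promoter minus U1U2 cells, beside -0.03, 0.00 and -0.03 over all genes. Any pair of these differences shares the libraries of a line, and both differences that start from promoter cells share the promoter libraries. They are therefore not independent, and a value that missed the threshold does not show that the responses were equal.

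**Figure D5:**
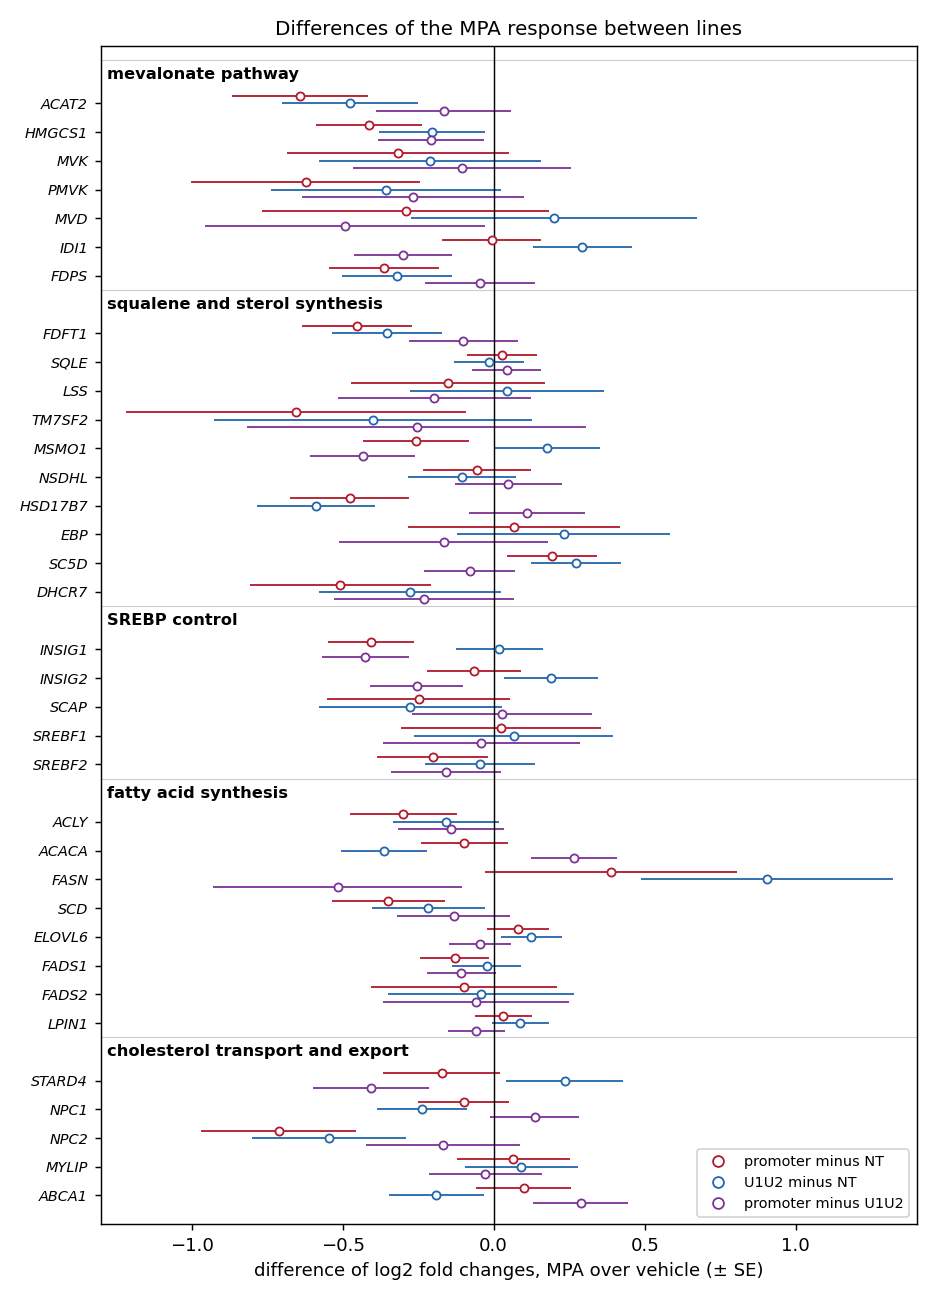
Difference between lines of the log2 fold change of MPA over vehicle, with its standard error, for the 35 tested genes. All points are open because none was called. NPC2 and ACAT2 lie left of 0 for both comparisons with NT cells, and LPIN1 and SQLE lie near 0.

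Other genes of these pathways were 57 in 3 lists, of which 55 were tested. In promoter cells 10 fell and 3 rose, where 8.40% of all genes were called lower and 6.63% higher. In U1U2 cells 5 fell and 7 rose, where the shares of all genes were 6.22% and 5.44%, and in NT cells 2 fell and 2 rose, where they were 3.48% and 2.44%. Among 19 tested genes of sterol and SREBP metabolism, 6 fell and none rose in promoter cells. They included RNF145, a ubiquitin ligase that acts on SCAP (-0.88 ± 0.13), TMEM97, a sterol-regulated membrane protein that binds NPC1 (-0.72 ± 0.07), and PGRMC1, a haem-binding partner of sterol enzymes (-0.64 ± 0.13). Among 22 tested genes of fatty acid and phosphatidate metabolism, ACSL1, an acyl-CoA synthetase (0.60 ± 0.14), and GPAM, the mitochondrial glycerol phosphate acyltransferase (0.36 ± 0.08), rose, and LPIN2, a relative of LPIN1, fell (-0.54 ± 0.15). Of 14 genes of cholesterol transport, 3 fell and 1 rose. NCEH1 (-0.84 ± 0.08) and LIPA (-0.58 ± 0.11), both hydrolases of cholesteryl esters, and OSBPL1A (-0.32 ± 0.07) fell, and APOD, a lipid-binding apolipoprotein, rose (1.90 ± 0.23).

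The precision of the values went with base composition. Of the tested genes, 11 had over 55% GC in their exons: MVK, PMVK, MVD, LSS, TM7SF2, DHCR7, SCAP, SREBF1, SREBF2, FASN and FADS2. Their standard errors in promoter cells were 0.13 to 0.40 with a median of 0.23, against 0.07 to 0.24 with a median of 0.12 for the other 24 genes. Many of the 11 were also scarce. MVK, PMVK, MVD, TM7SF2, SCAP, SREBF1 and FASN had medians of 0.882 to 14.3 CPM over all libraries, and LSS, DHCR7, SREBF2 and FADS2 31.3 to 137 CPM. Among the other 24, HSD17B7, EBP and MYLIP had medians of 6.5 to 11.9 CPM. The parts of level and base composition in the precision were not tested. In promoter cells 2 of the 11 were called and 16 of the 24, in U1U2 cells 1 and 13, and in NT cells 1 and 8, while the median log2 fold changes in promoter cells were -0.35 and -0.44. The shares of all genes called were 15.0%, 11.7% and 5.93% in promoter, U1U2 and NT cells. In most groups these genes peaked in the same replicate: all 11 were highest in NT vehicle replicate 1, at a median of 1.36 times their group mean. All 11 were highest in NT MPA replicate 2 (1.22 times) and all 11 in U1U2 MPA replicate 3 (1.33 times). In U1U2 vehicle replicate 2 and promoter MPA replicate 1, 10 were highest (1.13 and 1.17 times). Promoter vehicle had no common peak, with 6 highest in replicate 1 and 5 in replicate 3. Such peaks were not counted for all genes of this composition. With offsets for GC and length in each library, 24 genes were called lower and 1 higher in promoter cells, 22 lower in U1U2 cells and 12 lower and 1 higher in NT cells. Calls were gained for MVK, MVD, LSS, NSDHL, SC5D, SREBF2 and FADS2 in promoter cells and for MVK, MVD, IDI1, NSDHL, SC5D, DHCR7, SREBF2 and STARD4 in U1U2 cells. In NT cells FDPS, NSDHL and FASN were gained as lower and ABCA1 as higher. Of the gained genes, NSDHL, SC5D, IDI1, STARD4, FDPS and ABCA1 are not among the 11 with over 55% GC. The offsets also raised the calls over all genes, to 3367 from 2339 in promoter cells. In U1U2 cells they gave 2559 against 1814, and in NT cells 1380 against 922.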

How the data were processed

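RNA from 18 libraries was sequenced after a stranded poly-A preparation, per the labels' protocols. The authors deposited raw read counts per gene. Per the submitters' processing notes, STAR 2.6.0c, edgeR 4.2.2, R 4.4.1 and hg38 were used; the counter, its strand setting and the annotation are not given in the sources used here. A deposited log2 CPM table was not used. Here edgeR 4.0.16 was run in R 4.3.3 on these counts: filterByExpr (minimum count 10) kept 15558 genes, TMM factors were used, and 1 quasi-likelihood model with a term for each of the 6 groups was fitted to all 18 libraries. P-values were adjusted by Benjamini-Hochberg over all tested genes, with calls at 0.05. All comparisons between 2 lines or 2 media, and differences of responses, are contrasts of that model, checked on simulated counts. Library totals were 11.9 M to 33.4 M counts, and low counts limit the precision of the scarcest genes, such as TM7SF2. Values of each library are given, within a sub-pathway, for up to 4 called genes with the largest change in promoter cells, and other pathway genes are named up to 3 per list and direction. Genes and lists were chosen with earlier results of these data known. Alternatives were RLE factors, DESeq2 1.42.0, no filter, a mean of at least 1 CPM, only the compared groups, a replicate block and each library left out. Offsets for GC content and exon length were added after seeing the data; both were known for 14700 tested genes (94.5%).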

Additional observations from a re-analysis of the deposited data

Results flagged for a closer look

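NCEH1, a hydrolase of cholesteryl esters from the list of other transport genes, was called in the test of whether the MPA response differed between promoter and NT cells. It was the 1 call among the 55 tested other pathway genes, where 1.56% of all genes were called, so the count is near that of all genes. It had 58.9, 64.5 and 69.7 CPM in promoter MPA libraries, against 121, 119 and 105 CPM in promoter vehicle. It had 72.7, 74.6 and 71.3 CPM in U1U2 MPA against 88.6, 91.9 and 91.1 CPM in U1U2 vehicle, and 64.7, 60.7 and 70.7 CPM in NT MPA against 71.5, 73.6 and 75.7 CPM in NT vehicle. The MPA groups lay close together and the vehicle groups were ordered promoter, U1U2, NT from high to low. The log2 difference of responses, promoter minus NT cells, was -0.6647 ± 0.112 (adjusted p = 0.00426 by edgeR's quasi-likelihood test). Over the 19 alternatives that apply it ran from -0.7213 to -0.5911 and was called in all 19, with an adjusted p of up to 0.0272.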

How the results depend on the processing

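Of 42 called values of single genes, 28 kept their call under every alternative, 14 lost it under some and 0 changed direction. The count of genes called under MPA in U1U2 cells was 22 with GC and length offsets, against 14, where all genes gave 2559 against 1814. U1U2 against NT cells in vehicle gave 2 calls with DESeq2 (ACACA, LPIN1), 2 with no filter (ACAT2, ACACA) and 1 with offsets (LPIN1), against 0. Promoter against NT cells in vehicle gave 1 with DESeq2 (LPIN1), 2 with no filter (ACAT2, DHCR7) and 2 with offsets (PMVK, STARD4), against 0. In MPA, U1U2 against NT cells gave 1 with no filter (NPC2), against 0, and promoter against NT cells 2 with offsets (NPC2, LPIN1), against 1. With no filter the difference of responses gave 1 call for U1U2 minus NT cells (FASN) and 2 for promoter minus NT cells (ACAT2, NPC2), against 0. Leaving out each library gave 15 to 17 calls under MPA in promoter cells, 11 to 14 in U1U2 cells and 7 to 10 in NT cells. It gave 0 to 1 for U1U2 against NT cells in vehicle (1 without U1U2 vehicle replicate 1, ACACA), 0 to 1 for promoter against NT cells in vehicle (1 without NT vehicle replicate 1, PMVK) and 0 to 1 for promoter against NT cells in MPA. The replicate block left the counts at 18, 14 and 9. Same-numbered libraries correlated at -0.52 to 0.50. In 20 of 90 comparisons (22.2%) of a library with the 3 libraries of another group, it correlated best with its own number. The main model used no pairing by number. Whether same-numbered libraries shared a culture or batch is not stated, and these correlations over all genes cannot decide it. Over all genes, fitting only the compared groups gave 1049 calls against 1814 in U1U2 cells and 491 against 922 in NT cells. It gave 4 against 178, 435 against 1050 and 11 against 122 for U1U2 against NT, promoter against NT and promoter against U1U2 cells in vehicle, 85 against 268 for U1U2 against NT and 16 against 51 for promoter against U1U2 cells in MPA, and 8 against 34 for the U1U2 minus NT difference. The replicate block gave 62, 69 and 25 for U1U2 against NT in vehicle and promoter against U1U2 in vehicle and in MPA, and 12 and 150 against 34 and 242 for the differences U1U2 minus NT and promoter minus NT. DESeq2 gave 451, 258 and 86 for those first 3 comparisons, and 115, 468 and 57 against 34, 242 and 2 for the 3 differences. With no filter the counts were 808 for U1U2 against NT in vehicle and 281, 758 and 18 for the differences, and with offsets they were 392, 1737 and 236 in vehicle, 471, 1037 and 91 in MPA and 89, 451 and 13 for the differences. The cause of these changes was not tested. Low counts limit the scarce genes, above all TM7SF2 and ABCG1. The level of CYP51A1 is uncertain because most of its exon length is shared with AC000120.2 on the same strand.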
